A study of Mus musculus with 10 samples.

Results

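Revitalized mesenchymal stromal cells (rMSC) are cultured bone marrow stroma that received 5 genes, and the regions described here had an ATAC-seq peak in all 3 rMSC libraries and in none of the other 7. Peaks of the 10 deposited lists that overlapped on chromosomes 1 to 19 and X were merged into 201290 union regions, of which 4262 met this rule, 2.12% of all. The members were therefore selected on the peak calls themselves. Their presence in rMSC and absence elsewhere describe how they were chosen and are no result. Of the 4262 members, 878 lay on chromosomes 10 and 15, which are given apart because rMSC peaks outside the members were also more frequent there, and 3384 lay on the other chromosomes.

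All libraries came from C57BL/6J mice, whose age and sex the labels do not give. Freshly sorted stroma without CD45, Ter119 and CD31 was taken as Scf-GFP-negative (n = 2) and Scf-GFP-positive cells (n = 2), where Scf-GFP reports stem cell factor. Scf-GFP-positive stroma was also grown in medium with 20% fetal bovine serum and basic fibroblast growth factor and transduced with a control vector (control, n = 3) or with Klf7, Ostf1, Xbp1, Irf3 and Irf7 (rMSC, n = 3). Each library was made from 2700 to 5000 cells. Whether replicates came from different mice or dishes is not in the labels, and the spread behind every p-value may therefore be technical. By the run names kept in the peak lists, replicate 1 of each group shared a flow cell, and all other libraries shared a second one.

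In ATAC-seq a transposase cuts DNA that is not wrapped in nucleosomes, so peaks mark promoters, enhancers and other open sites. Mesenchymal stroma of the marrow makes stem cell factor, encoded by Kitl, and Cxcl12, which blood stem cells need, and cultured stroma is known to lose much of this niche activity. Irf3 and Irf7 are transcription factors of the interferon response, Xbp1 drives the unfolded protein response, Klf7 is a zinc finger factor and Ostf1 is a signalling adaptor.

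The deposited lists held 39936 to 78489 peaks per library, 66282, 70975 and 78489 in rMSC. Read totals were not used here and depth is unknown, but the summit pileups came out as whole fragments within 0.01 in 100% of peaks of every list. Every list reached down to peaks of 3 to 5 fragments, but not equally far. The weakest listed peak had 3 fragments in each rMSC list and in control 2 and 3. It had 4 in control 1, Scf-GFP-negative 2 and both Scf-GFP-positive lists, and 5 in Scf-GFP-negative 1. The part of this difference in the number of members was not tested. A peak summit lay within 1 kb of the start of 6, 6 and 5 of 7 stromal markers in rMSC, with Kitl, Cxcl12, Pdgfra, Ebf1 and Col1a2 marked in all 3 libraries and Lepr in none of the cultures. None of 7 blood markers was marked in any culture, against 5 and 5 in Scf-GFP-negative and 3 and 3 in Scf-GFP-positive stroma. Of 5 endothelial markers, 0, 0 and 1 were marked in rMSC and 2, 2 and 1 in control.

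The strands below lie directly upstream of gene starts whose promoter window overlapped a member, and show the sequence behind the promoter results. They were read from RefSeq promoter entries of GRCm38.p6, which shares its coordinates with mm10, and each gives the 150 bases before the start, 5′ to 3′ on the gene's strand. Capitals mark GAAANNGAA, a core of interferon regulatory factor (IRF) sites, in Oas1g and Apol9b, the AP-1 heptamer TGANTCA in Ctla2b, Ctla2a and Galnt15, and the RUNX core TGTGGT or its complement in Sox6. The 6 promoters were chosen after their values were seen.
Oas1g: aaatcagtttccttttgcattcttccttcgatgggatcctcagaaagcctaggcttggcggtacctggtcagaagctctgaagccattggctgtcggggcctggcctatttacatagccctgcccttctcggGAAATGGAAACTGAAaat
Apol9b: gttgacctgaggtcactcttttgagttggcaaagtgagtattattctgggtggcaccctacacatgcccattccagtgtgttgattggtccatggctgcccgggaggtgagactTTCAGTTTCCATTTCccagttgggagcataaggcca
Ctla2b: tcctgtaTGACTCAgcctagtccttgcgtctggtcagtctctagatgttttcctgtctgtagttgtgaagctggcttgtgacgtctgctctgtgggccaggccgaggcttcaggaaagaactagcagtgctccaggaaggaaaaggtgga
Ctla2a: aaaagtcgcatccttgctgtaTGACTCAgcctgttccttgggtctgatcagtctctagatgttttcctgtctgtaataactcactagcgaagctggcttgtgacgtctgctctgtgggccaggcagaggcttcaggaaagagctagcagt
Galnt15: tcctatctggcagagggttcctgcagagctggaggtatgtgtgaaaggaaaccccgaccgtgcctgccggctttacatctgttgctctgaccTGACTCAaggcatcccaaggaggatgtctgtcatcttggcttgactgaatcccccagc
Sox6: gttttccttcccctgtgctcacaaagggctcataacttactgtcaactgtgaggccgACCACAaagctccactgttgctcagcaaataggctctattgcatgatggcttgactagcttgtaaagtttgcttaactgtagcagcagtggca
They lie at chr5:120887614-120887763 on the minus strand for Oas1g, chr15:77728922-77729071 on the plus strand for Apol9b, chr13:60897448-60897597 on the minus strand for Ctla2b and chr13:60936626-60936775 on the minus strand for Ctla2a. Those of Galnt15 and Sox6 lie at chr14:32028953-32029102 on the plus and chr7:115824711-115824860 on the minus strand. The Sox6 start used is an inner one, as the gene body runs on upstream to chr7:116040776. The marked letters fall inside the member in all of them but Galnt15, where the member ends just before the match.

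Members were weak peaks. In each of the 3 rMSC libraries the median member had 6 fragments at its strongest summit (quartiles 5 and 9), and the strongest member had 39, 35 and 44 fragments in rMSC 1, 2 and 3. Regions open in all 10 libraries had a median of 21, 20 and 20 fragments in the same libraries, and those open in all 6 cultures but in no sorted library had 10, 10 and 10. The 3385 regions open in all 3 control libraries alone, chosen by the mirrored rule, had 8, 7 and 7 fragments in control. The caller's −log10 q of a member's weakest rMSC peak had a median of 3.87 and ran from 1.31 to 56.9, and 1392 members (32.7%) reached 5 in all 3 libraries, 378 (8.87%) reached 10 and 57 reached 20. These fragment counts and q-values come from the authors' lists and belong to the choice of members.

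**Figure D1:**
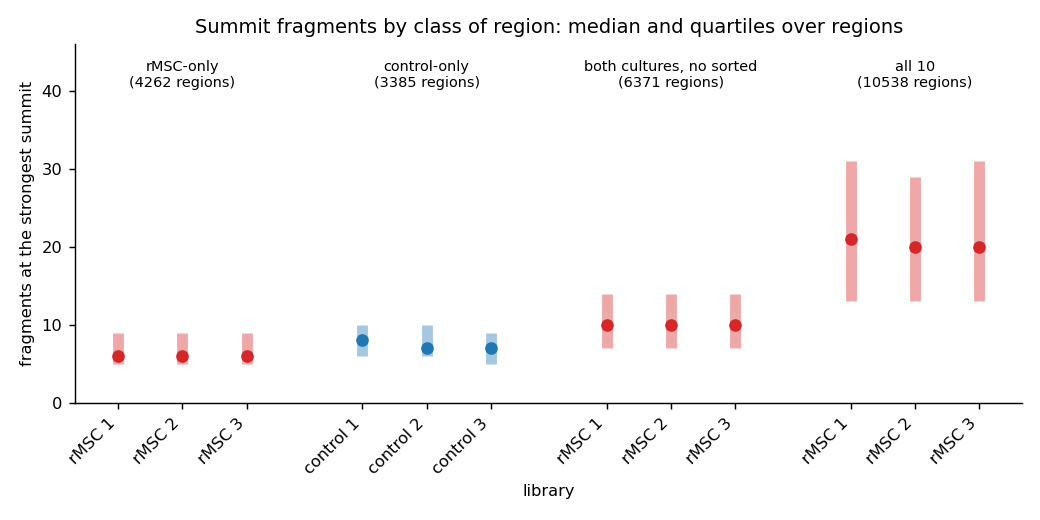
Fragments at the strongest summit of each region (y axis) in each library (x axis), for 4 classes of region. Points are medians and bars run from the lower to the upper quartile over regions. The rMSC-only regions sit at 6 fragments, below the 10 of regions shared by both cultures and the 20 to 21 of regions open in all 10 libraries.

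Many regions missed the rule by 1 library. A further 5565 regions were open in 2 rMSC libraries and nowhere else, and 3222 were open in all 3 rMSC libraries and 1 other. Of these 3222, 1340 were open in control 2, 1058 in control 3 and 209 in control 1, and 343 in Scf-GFP-positive 2. Just outside the rule, the other library's peak had a median −log10 q of 3.85, and just inside it the weakest rMSC peak had 3.87. A site missing from a list can be open and undetected, so absence is stated for the lists alone.

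The strongest members outside chromosomes 10 and 15 were mostly far from gene starts. The top region, chr14:82065127-82065820, had 35, 35 and 44 fragments in rMSC 1, 2 and 3 and lay 2042 kb from Olfm4, the nearest protein-coding gene. A region 46.4 kb from Ppp1r3a, which encodes a subunit that targets a phosphatase to glycogen, had 39, 31 and 31 fragments at chr6:14666647-14667400. A region inside Cwc27, a splicing-associated cyclophilin gene, had 34, 26 and 27 fragments at chr13:104762869-104763962. Each of these 3 regions had more fragments in every rMSC library than the median region open in all 10 libraries.

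Regions at known genes followed. A member within Boc, which encodes a hedgehog co-receptor, had 33, 28 and 25 fragments at chr16:44513440-44514342. A member inside Stard5, a sterol-binding protein gene, had 31, 23 and 36 fragments at chr7:83641016-83641691. A member over the start of Ctla2b, which encodes a cysteine protease inhibitor, had 17, 28 and 31 fragments at chr13:60897281-60897984. The strongest of the members in Dpp10, which encodes an accessory subunit of potassium channels, had 17, 23 and 28 fragments at chr1:124487494-124488935.

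On chromosome 10 the strongest member lay 21.1 kb from Fam13c and had 21, 30 and 28 fragments at chr10:70417747-70418914. The second lay 1.37 kb from Inhbc, which encodes an inhibin beta subunit, and had 19, 23 and 24 fragments at chr10:127353825-127354952. On chromosome 15 the first was a region 314 kb from Adgrb1, an adhesion receptor gene, with 29, 33 and 28 fragments at chr15:74201764-74202397. The second lay inside Slc38a1, a glutamine transporter gene, with 28, 22 and 34 fragments at chr15:96608471-96609145. A member inside Erbb3, which encodes a neuregulin receptor, had 20, 18 and 18 fragments on chromosome 10.

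Most members lay away from promoters. A gene start was within 1 kb of 177 of the 4149 members on chromosomes with start positions, or 4.27% (95% Wilson interval 3.69 to 4.92%, which covers counting error only). The share was 10.2% over all union regions, 72.1% over regions open in all 10 libraries and 2.83% (2.31 to 3.46%) over control-only regions. The median distance to a start was 26.2 kb, and 53.8% of members overlapped a gene body against 56.4% of all regions. Without chromosomes 10 and 15 the share near a start was 4.4%.

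A region open in all 3 rMSC libraries that was not itself a member lay within 5 kb of 26% of members. One open in both Scf-GFP-positive libraries lay within 5 kb of 18.5%. A region open in all 3 control libraries lay within 5 kb of 21.8% of members. Of control-only regions, 21.4% lay within 5 kb of a region open in all rMSC libraries. For regions open in all control libraries that were not control-only, it was 21.9%. For regions open in both Scf-GFP-negative libraries the share was 10.4%, from a set of 21080 regions against 31874 for Scf-GFP-positive stroma. Another member lay within 10 kb of 12.6% of members, 10.8% outside chromosomes 10 and 15, against 9.75% of control-only regions.

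Chromosomes 10 and 15 held 20.6% of members (Wilson 19.4 to 21.8%) but 12.6% of union regions and 7.98% of control-only regions. Chromosome 10 had 31.5 and chromosome 15 had 38.9 members per 1000 union regions, while the other chromosomes ran from 12.7 on chromosome 4 to 26.1 on chromosome 14 with a median of 18.9. In 20 Mb windows there were 24.4 to 34.8 members per 1000 regions on chromosome 10 and 32.4 to 52.9 on chromosome 15. The lowest window, at 120 to 140 Mb of chromosome 10, lay within the range of the other chromosomes. Of those, only chromosome 4 was split into windows, at 8.46 to 18.5. The share of members on chromosomes 10 and 15 was 24.4% in lists of equal size, for which each list was cut to its 39912 peaks of lowest p.

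**Figure D2:**
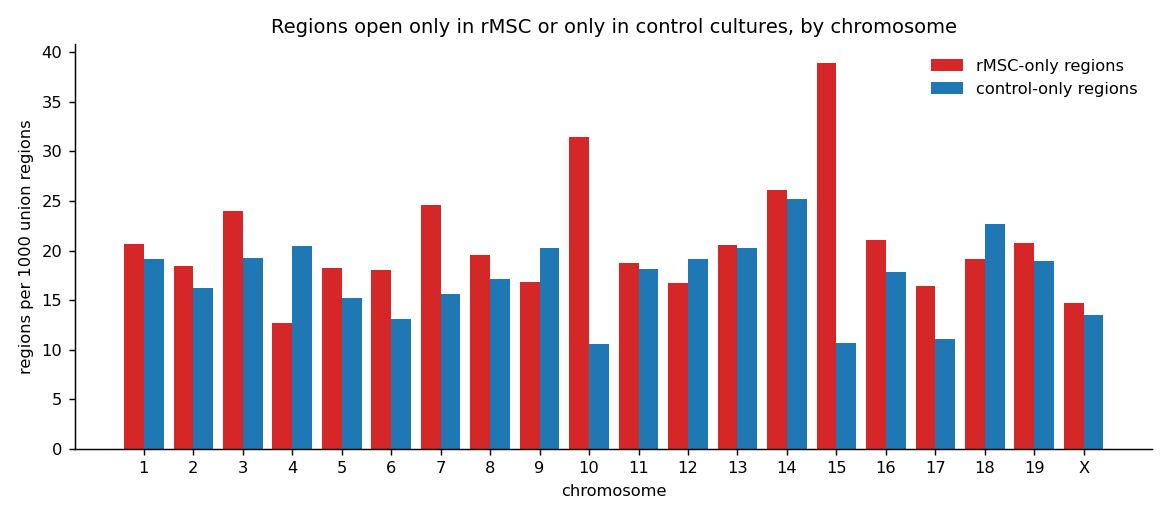
Regions per 1000 union regions (y axis) by chromosome (x axis), red for regions open only in rMSC and blue for regions open only in control. Chromosomes 10 and 15 stand at 31.5 and 38.9 for rMSC-only regions and at 10.6 and 10.7 for control-only regions.

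Peaks outside the members, which the rule did not select, were also more frequent on these chromosomes in rMSC. Chromosome 10 held 7.39, 8.3 and 9.47% of such peaks in rMSC 1, 2 and 3 and 5.86, 6 and 5.86% in control 1, 2 and 3. Chromosome 15 held 5.77, 6.17 and 6.83% in rMSC and 4.46, 4.39 and 4.4% in control. The groups did not overlap on either chromosome. Nor did they on chromosome 4, where rMSC held less, at 5.09, 4.76 and 4.62% against 5.96, 5.91 and 5.98% in control. This share was not compared on the remaining chromosomes. The mean difference was 2.48 percentage points on chromosome 10 and 1.84 on chromosome 15. Each had p = 0.1 in a two-sided exact permutation test over libraries, the smallest p that 3 against 3 allows. It was the same after adjustment over the 2 chromosomes. Chromosomes 10 and 15 were set apart because of this excess in the same libraries. The test and its adjustment therefore do not cover their choice from all chromosomes and lend the excess no support. Sorted stroma held 5.58 to 5.85% on chromosome 10 and 3.39 to 4.34% on chromosome 15. Replicate 1 of rMSC and control, which share a flow cell, gave 7.39 against 5.86% and 5.77 against 4.46%. The part of this chromosome-wide level in the number of members was not tested.

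Few members touched a promoter. The window from 250 bases before to 50 after a start overlapped a member for 103 RefSeq promoters of 93 genes, 46 of them protein-coding. Sox6, which encodes a transcription factor of cartilage formation, had 15, 18 and 18 fragments in rMSC 1, 2 and 3 over an inner start. This start, chr7:115824710, lies inside the gene body, which runs on upstream to chr7:116040776. Npy4r, a neuropeptide Y receptor gene, had 16, 14 and 14 fragments, and a member just upstream of Galnt15, which encodes a glycosyltransferase, had 14, 17 and 12. Ctla2a, the neighbour and close relative of Ctla2b, had 7, 15 and 15. Reads of the similar Ctla2a and Ctla2b sequences may have been split between them.

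Some weaker members lay over the starts of genes for secreted proteins, which were chosen after their values were seen. Fgf5, a fibroblast growth factor gene, had 9, 7 and 9 fragments over its start. Sema3e, a guidance cue gene, had 6, 9 and 11, and Adm2, a peptide hormone gene on chromosome 15, had 10, 8 and 8. Lamb3, a laminin chain gene, had 8, 6 and 10. The members over the starts of Edn2 and Nppc, which encode vasoactive peptides, had 5, 9 and 5 and 4, 6 and 8 fragments. A member just inside Nr2f2, which encodes a nuclear receptor of mesenchymal cells, had 12, 8 and 12.

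The promoters under members had a median of 5 CpG and 50% G or C in 300 bases, beside 7 CpG and 53% for all promoters. The medians were 6 and 51.3% under control-only regions and 23 and 62.3% under regions open in all 10 libraries. At least 10 CpG were found in 17.5% of promoters under members and 43.8% of all promoters. That share was 16.7% under control-only regions and 92.1% under regions open in all 10. Each of 19 motifs was searched on both strands. TGANTCA was in 29.1% (30 of 103) of promoters under members, 24.1% (13 of 54) under control-only regions, 3.75% under regions open in all 10 and 7.85% of all 32619 promoters. TGTGGT was in 31.1, 20.4, 11 and 16.6% of the same sets, the SOX core ACAAAG in 30.1, 16.7, 11.4 and 18.7%, and the TEAD core GGAATG in 23.3, 14.8, 10.6 and 14.6%. GAAANNGAA, whose ends can overlap a TTCNNNGAA match, was in 12.6, 11.1, 6.32 and 8.53%, and the Klf-like CNCCCNCCC in 19.4, 33.3, 33.7 and 24.5%. In the strands printed above, the Ctla2b, Ctla2a and Galnt15 matches all read TGACTCA. A match describes these letters and no binding. Motifs of members away from promoters were not analysed here.

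Members overlapped 7 of 1005 microRNA hairpins. Hairpins under the other classes of region were not counted, so this number cannot be called high or low. MicroRNAs repress messenger RNAs that pair with their seed, bases 2 to 8. A single member inside Aopep, chr13:63300610-63301526, held the hairpins of Mir27b, Mir24-1 and, on the opposite strand, Mir3074-1, with 7, 6 and 5 fragments in rMSC 1, 2 and 3. Another, inside Ctdspl at chr9:119031706-119032426, covered the Mir26a-1 hairpin with 5, 4 and 8 fragments. The main mature sequences are shown with the seed in capitals, from RefSeq of the same build.
mmu-miR-27b-3p: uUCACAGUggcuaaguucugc
mmu-miR-24-3p: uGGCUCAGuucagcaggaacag
mmu-miR-26a-5p: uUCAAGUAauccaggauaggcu
The 3 seeds differ from one another. No RNA was measured here.

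Members were spread over many loci, most with a single member. A locus here is a protein-coding gene body with 10 kb on either side, and 2528 of 21627 loci (11.7%) held at least 1 member, 2025 of them exactly 1, 503 at least 2 and 27 at least 5. The share was 24.1% on chromosomes 10 and 15 and 10.6% elsewhere. Loci with a member were longer, at a median of 52.1 kb of gene body against 15.4 kb. Because the rule used these peaks, the summit counts in the next 3 paragraphs describe rMSC against the other groups without a test.

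Cemip, which encodes a hyaluronan-degrading protein, held 16 members over 150 kb of chromosome 7. Its locus had 86, 84 and 87 peak summits in rMSC 1, 2 and 3, 10, 12 and 14 in control, 4 and 12 in Scf-GFP-positive and 0 and 0 in Scf-GFP-negative stroma. Peaks covered 17, 18.2 and 18% of its gene body in rMSC and 1.92, 2.79 and 3.31% in control. Most of these peaks were weak, as the lists of equal size held 10, 18 and 18 summits in rMSC and 7, 8 and 10 in control. With the rule applied anew to those lists, 2 regions of the locus were members, a count that does not track the 16. Dpp10 held 12 members, with 18, 16 and 22 summits in rMSC and 0, 3 and 1 in control. Counted anew in the same way, Dpp10 held 7 members in lists of equal size, with 12, 11 and 14 summits against 0, 1 and 0.

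Aopep, the aminopeptidase gene that hosts Mir27b and Mir24-1, held 9 members. In lists of equal size 6 regions of its locus met the rule, most of them regions other than these 9. The member over Mir27b and Mir24-1 was not among the 6. Its rMSC 3 peak had a −log10 q of 3.46, below the 4.67 where that cut list ended. Over all deposited peaks the Aopep summits numbered 75, 92 and 86 in rMSC, 31, 49 and 49 in control, 16 and 30 in Scf-GFP-positive and 5 and 6 in Scf-GFP-negative stroma. Cadps, which encodes a factor for release of dense-core vesicles, held 8 members, with 14, 16 and 15 summits in rMSC, 1, 0 and 0 in control, 0 and 2 in Scf-GFP-positive and 1 and 0 in Scf-GFP-negative stroma. At equal size 4 regions of the Cadps locus met the rule. Sox6 held 5 members and 15, 17 and 22 summits in rMSC, against 6, 9 and 9 in control, 9 and 18 in Scf-GFP-positive and 18 and 19 in Scf-GFP-negative stroma. In Sox6 the sorted libraries overlapped rMSC in number while none of them had a peak at the 5 members. Msi2, Pde1c and Dlg2 held 6 members each, and Iqschfp, Otud7a, Atp10b and Etl4 held 5 each.

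On chromosome 10, Syn3 held 18 members, 13 of which fell in the locus of Timp3, a gene inside Syn3 that encodes an inhibitor of matrix proteases. The Timp3 locus had 42, 46 and 50 summits in rMSC, 7, 12 and 10 in control, 6 and 8 in Scf-GFP-positive and 2 and 2 in Scf-GFP-negative stroma. Peaks covered 53.6, 67 and 51.5% of the Timp3 body in rMSC and 6.03, 11 and 11.2% in control. In lists of equal size Timp3 kept 24, 31 and 26 summits in rMSC against 7, 9 and 8 in control. On chromosome 15, Ank, which encodes a pyrophosphate transporter, held 10 members, with 67, 53 and 57 summits in rMSC, 7, 15 and 17 in control, 4 and 13 in Scf-GFP-positive and 7 and 8 in Scf-GFP-negative stroma. Khdrbs3, an RNA-binding protein gene, held 7, with 24, 28 and 29 summits in rMSC and 9, 11 and 7 in control.

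**Figure D3:**
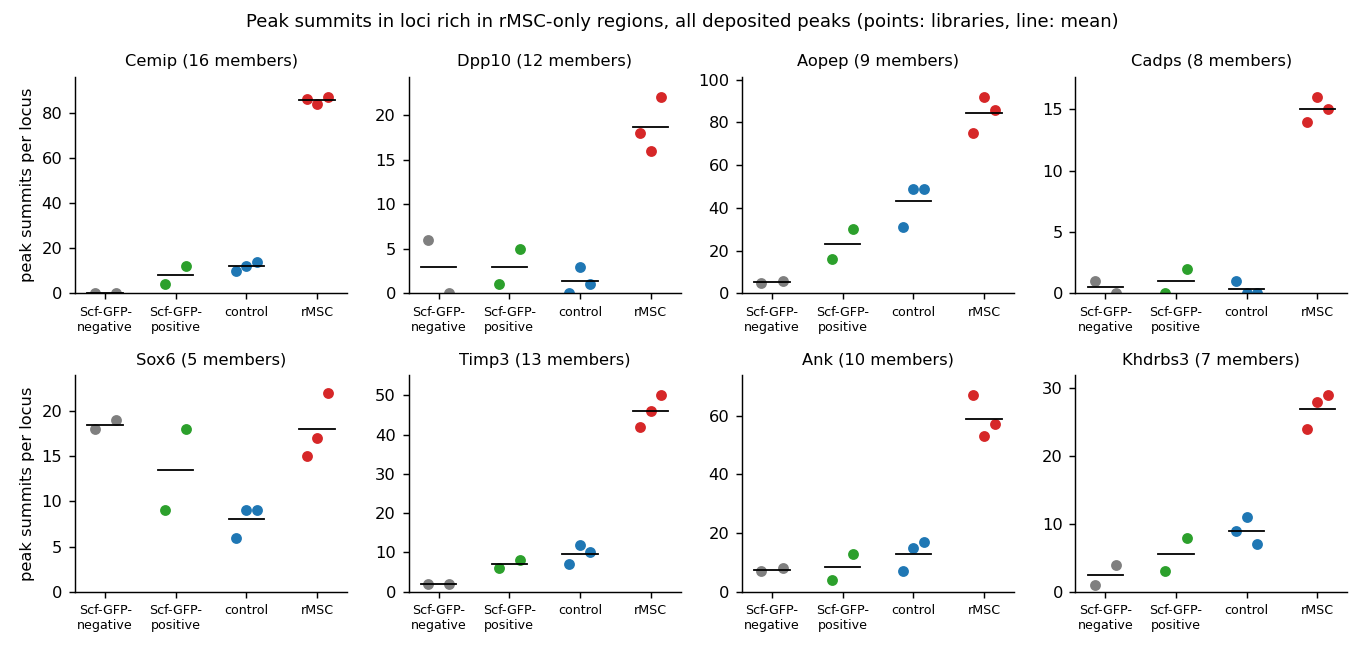
Peak summits per locus (y axis) in each library by group (x axis) for 8 loci rich in members, over all deposited peaks. Points are libraries and lines group means. The Cemip locus reached 84 to 87 summits in rMSC and at most 14 elsewhere, while at Sox6 the sorted stroma overlapped rMSC.

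Among gene lists, the share of loci with a member was read beside the 11.7% of all loci. It was 47.6% (10 of 21) for mesenchymal and reticular cell genes, 33.3% (4 of 12) for chondrocyte genes and 32% (8 of 25) for growth factors and their receptors. These lists held longer genes than the 17.3 kb median of all loci, at 44.5, 28.4 and 77.9 kb. Their loci also held more peaks of any kind, at a median of 6.3, 2.85 and 3.8 summits per library against 2.3 over all loci. Fibroblast and matrix genes had 15.4% (4 of 26) but 16 members, 13 of them in Timp3, smooth muscle genes 21.4% (3 of 14) and Schwann and neural markers 25% (3 of 12, Erbb3, Rbfox3 and Mbp). Of the Schwann markers, Foxd3 was the only 1 with a start entry among those checked, and no library had a peak there. The transcription factor genes Prrx1, Twist2, Zeb1, Zeb2, Ebf1, Ebf3 and Nr2f2 each held 1 member, as did Cd44, Cspg4 and Nt5e, which encode surface proteins of mesenchymal cells. The −log10 q of the weakest rMSC peak was 2.33 at Cd44 and Zeb1, 3.11 at Prrx1 and Ebf3 and 3.46 at Twist2 and Ebf1. It was 5.15 at Cspg4, 7.91 at Nr2f2, 9.37 at Nt5e and 10.1 at Zeb2. The Zeb2 member had 9, 12 and 10 fragments in rMSC, although the Zeb2 locus as a whole had 12, 8 and 10 summits in rMSC and 19 to 36 in sorted stroma.

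Growth factor genes with members included Pdgfd, Pdgfb, Egfr, Tgfb2, Fgfr2, Igf1r, Nrg1 and Erbb3. Pdgfd, which encodes a platelet-derived growth factor, held 3 members and 6, 14 and 11 summits in rMSC, 0, 0 and 0 in control, 5 and 7 in Scf-GFP-positive and 5 and 7 in Scf-GFP-negative stroma. The single Pdgfb member, on chromosome 15, had 12, 9 and 8 fragments. Egfr, the epidermal growth factor receptor gene, held 3 members with 4 to 7 fragments each. Wnt5b, a Wnt ligand gene, also held 3, the strongest with 12, 7 and 11 fragments.

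Of 26 interferon response genes found in the gene table, 4 (15.4%) had a member in their locus, beside 11.7% of all loci, and 22 had none. Ifi44, an interferon-induced gene, held 3 members, 1 of them over its start with 7, 8 and 8 fragments. Its locus had 3, 3 and 4 summits in rMSC, 0, 0 and 0 in control, 0 and 1 in Scf-GFP-positive and 0 and 0 in Scf-GFP-negative stroma. The Oas1a locus, a sensor of double-stranded RNA, held 2 members, 1 over the start of its neighbour Oas1g with 7, 11 and 7 fragments. Ifit2 and Ifit3 shared 1 member with 8, 7 and 9 fragments. Outside the list, the start of Apol9b on chromosome 15 carried a member with 7, 11 and 6 fragments. The Oas1g and Apol9b promoters printed above each hold overlapping GAAANNGAA matches close to the start.

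Of 22 niche factor genes, Angpt1 on chromosome 15 held 2 members and Csf1 held 1, whereas Kitl, Cxcl12 and Vcam1 held none. No adipocyte gene of 13 held a member, and of 25 genes for protein folding and secretion only Sec24d did (4%). The share was 9.09% for niche factor genes, and 11.7% over all loci. Adipocyte genes were shorter, at a median of 13.7 kb against 17.3 kb over all loci. With so few genes these shares are not read as a result. Of 21 blood markers, Ptprc, Itgam and Csf1r (14.3%) held members within their loci. None of the blood markers with a start entry had a peak at its start in rMSC. Of the 5 transduced genes, Irf3 and Ostf1 held a member and Klf7, Xbp1 and Irf7 did not. The Irf3 member, chr7:45002070-45002380, had 4, 6 and 15 fragments inside the gene body, and the Ostf1 member, chr19:18590272-18590629, had 6, 7 and 5. The rMSC cells carried added copies of both genes, and in these lists DNA of the added copies cannot be told apart from the genome's.

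**Figure D4:**
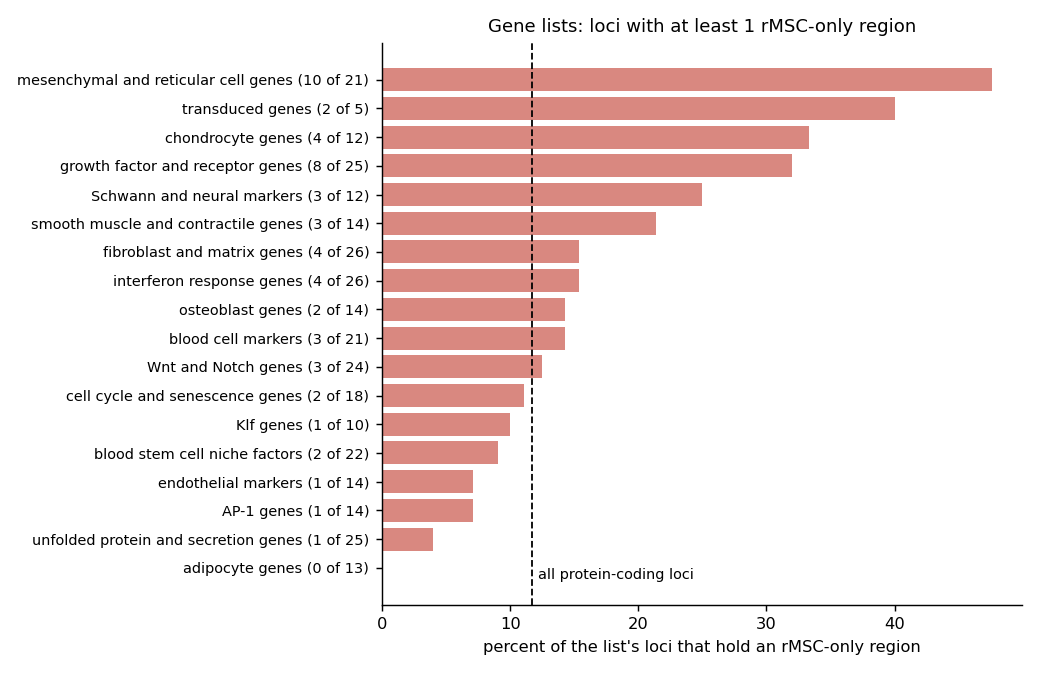
Percent of each gene list's loci that held at least 1 rMSC-only region (x axis), by list (y axis, with counts), beside a dashed line at 11.7% for all protein-coding loci. Mesenchymal and reticular cell genes stand at 47.6% (10 of 21) and adipocyte genes at 0 (of 13). The lists are short and differ in gene length.

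The comparisons that the rule did not use asked how the same loci differed among the 7 libraries without any member peak. Summits in lists of equal size were fitted as log2(summits + 0.5) with limma over the 9094 loci that had a mean of at least 2 summits, 1671 of them with a member. In Scf-GFP-positive against Scf-GFP-negative stroma, 377 of the 1671 (22.6%) were higher at a Benjamini-Hochberg adjusted p under 0.05, against 13.5% of all loci tested, and 235 (14.1%) were lower, against 16.8%. The median log2 change was 0.00 in loci with a member and -0.22 over all tested. Gene length moved with this. Among genes over 100 kb, 34.5% of 724 loci with a member and 26.8% of 945 without one were higher. The filter on the mean uses rMSC summits too. In alternatives chosen after seeing the data, 359 of 1569 were higher and 219 lower with summits inside members left out, and 348 of 1546 higher and 232 lower with the filter on the 7 libraries outside rMSC.

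With all deposited peaks in place of equal-size lists, the split over loci with a member moved from 377 higher and 235 lower to 474 higher and 81 lower, while the median log2 change over all tested moved from -0.22 to 0.00 and that of loci with a member from 0.00 to 0.29. With gene bodies alone it was 331 higher and 119 lower. The 5 loci with the largest increases among those with 2 or more members had no summit in either Scf-GFP-negative library. Palld, which encodes an actin-bundling protein, had 0 and 0 summits in Scf-GFP-negative against 12 and 17 in Scf-GFP-positive stroma (limma adjusted p = 1.22e-05), and 12 to 17 in the cultures. Mylk, the myosin light chain kinase gene, had 13 and 14 against 0 and 0 (limma adjusted p = 5.47e-05), and 6 to 13 in the cultures. Egfr had 16 and 9 against 0 and 0 (limma adjusted p = 3.84e-05), and its rMSC count of 6 to 8 lay below the 14 to 16 of control. Sema5a and Rin2 also had 0 summits in both Scf-GFP-negative libraries and 7 to 11 in Scf-GFP-positive stroma. No fold is given against a group listed at 0. Such a group shows no spread between its libraries. This lowers the spread behind the adjusted p here and at the later loci with a group at 0.

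Fewer summits in Scf-GFP-positive stroma were found at Aldh1a1, a retinaldehyde dehydrogenase gene, with 0 and 0 against 4 and 6 in Scf-GFP-negative stroma (limma adjusted p = 0.00209). Sox5, a partner of Sox6 in cartilage, had 7 and 5 against 36 and 21, a log2 change of -2.12 (SE 0.31, limma adjusted p = 0.00284). Anp32b, a histone chaperone gene, had 1 and 1 against 5 and 7, a log2 change of -2.10 (SE 0.19, limma adjusted p = 0.000332). Sox5 did not pass with all deposited peaks (limma adjusted p = 0.081, the highest over 19 alternatives). Slc38a1 on chromosome 15 had 0 and 1 in Scf-GFP-positive against 4 and 4 in Scf-GFP-negative stroma, but it passed the filter only through its rMSC summits, and its test is not given. At Anp32b and Slc38a1 the rMSC libraries had 3, 4 and 3 and 8, 10 and 7 summits in the same lists. These include their 2 and 3 members, which by the rule had no peak in Scf-GFP-positive stroma.

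In control against Scf-GFP-positive stroma, 135 of the 1671 loci with a member (8.08%) were higher, beside 5.80% of all loci tested, and 107 (6.4%) were lower, beside 6.25%. These shares were near the background. The calls rested on few libraries. The 242 calls became 117 and 116 without Scf-GFP-positive 1 or 2, 128, 138 and 159 without control 1, 2 or 3, and 97 (75 higher and 22 lower) with all deposited peaks. The balance of directions turned without control 2, with 65 higher and 73 lower. With the replicate number as a block 53 were higher and 53 lower, with the flow cell as a term 118 and 87, and with the filter on the 7 libraries outside rMSC 113 and 101.

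Some loci with members lost summits between Scf-GFP-positive stroma and control. Fry, which encodes a large cytoskeletal scaffold, had 1, 1 and 1 summits in control against 17 and 11 in Scf-GFP-positive stroma, a log2 change of -3.24 (SE 0.23, limma adjusted p = 0.000500), and 7, 5 and 5 in rMSC. Fam189a1 had 1, 2 and 1 against 10 and 12, a log2 change of -2.69 (SE 0.25, limma adjusted p = 0.00175), and 6, 5 and 7 in rMSC. With all deposited peaks Fam189a1 did not pass (limma adjusted p = 0.0712, the highest over 19 alternatives). Pdgfd had 0, 0 and 0 against 2 and 3 (limma adjusted p = 0.00278), and 5, 4 and 3 in rMSC. At Fry, Fam189a1 and Pdgfd every rMSC library lay above every control library in summits, partly at members. By the rule, members had a peak in every rMSC library and none in control or Scf-GFP-positive stroma. Loci named for their members were thus favoured to show this order, which describes the choice and is no result. Dapk2 and Dgkg also passed as lower, but not without either Scf-GFP-positive library or with the replicate block (limma adjusted p = 0.0751 and 0.0852), and Dgkg did not pass under 10 of 19 alternatives.

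Other loci gained summits in control. Aldh1a1 had 2, 4 and 6 summits in control against 0 and 0 in Scf-GFP-positive stroma (limma adjusted p = 0.00694), and 4, 4 and 2 in rMSC. Tnni3k, a cardiac kinase gene, had 8, 8 and 6 against 1 and 0 (limma adjusted p = 0.0165), and did not pass without Scf-GFP-positive 2 (limma adjusted p = 0.0765, the highest over 19 alternatives). Ptprr on chromosome 10, a tyrosine phosphatase gene, had 4, 5 and 4 against 0 and 0 (limma adjusted p = 0.0142), and Car10 had 5, 6 and 4 against 1 and 0 (0.0401). Ptprr did not pass without either Scf-GFP-positive library or with all deposited peaks, and Car10 did not pass under 10 of 19 alternatives. Ano4 on chromosome 10, an anoctamin gene, had 2, 4 and 3 against 0 and 0 and 7, 8 and 6 in rMSC, but it passed the filter only through its rMSC summits, and its test is not given.

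**Figure D5:**
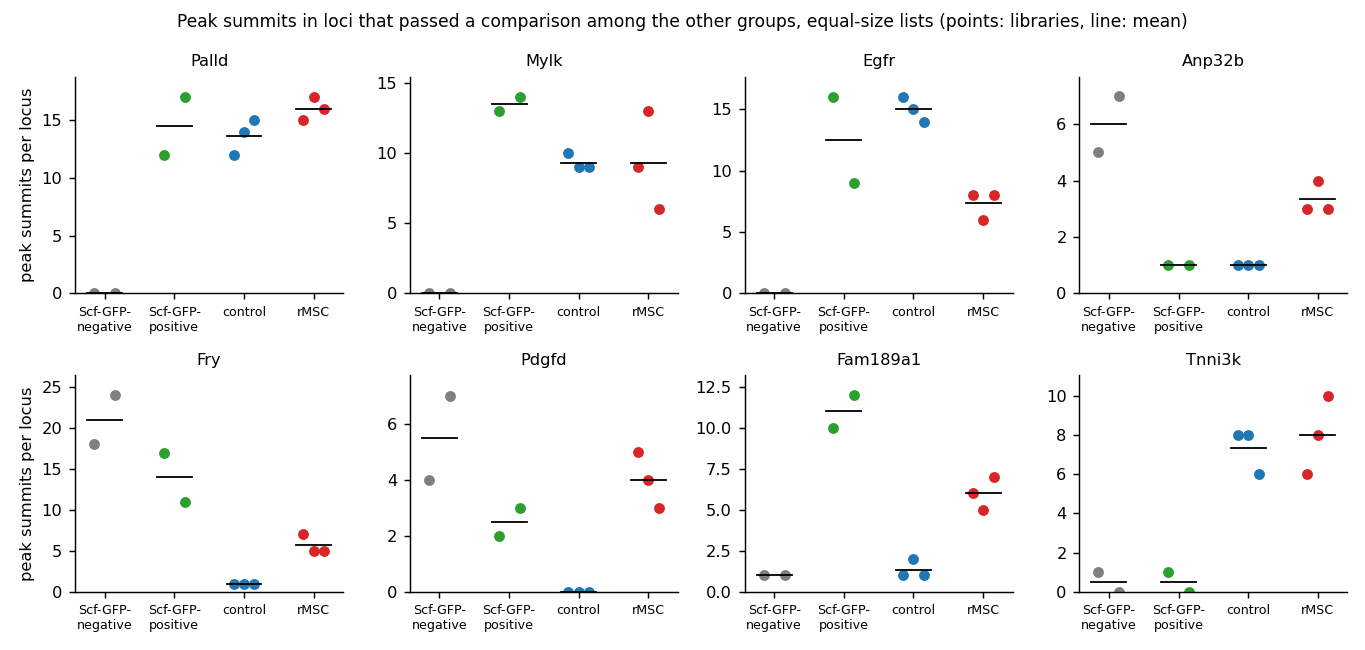
Peak summits per locus (y axis) in each library by group (x axis), in lists of equal size, for 8 loci with 2 or more members that passed a comparison among the groups without member peaks. Points are libraries and lines group means. Fry, Pdgfd and Fam189a1 had 0 to 2 summits in control and more in both Scf-GFP-positive stroma and rMSC. The loci were chosen for members, which favours rMSC above control.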

How the data were processed

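Peaks were called per library with MACS2 after alignment with BWA to mm10, per the submitters' processing notes, with tool versions not given in the sources used here. Each deposited list gives for every peak the authors' fold enrichment (a ratio), −log10 p and −log10 q, a score made from the q-value and a summit offset. Summit fragments were recovered from the fold and the constant background of each list. Overlapping peaks of chromosomes 1 to 19 and X were merged. Genes, promoters and microRNAs came from RefSeq tables of GRCm38.p6, which has mm10 coordinates. With no genome sequence, motifs were searched only in promoter windows, and start positions cover no chromosome 18 gene. The members and gene lists were chosen with earlier results of these data known.

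Locus summits were tested with limma 3.58.1 in R 4.3.3 with a trend, all 4 groups in 1 fit (6 residual and 1.57 prior degrees of freedom), over 9094 loci. The fit was also run on simulated Poisson counts with large planted changes. Those counts had no added spread between libraries, so that run lends the calls here no support. Named were the 20 strongest members by their weakest rMSC −log10 q (5 more each on chromosomes 10 and 15), the 12 loci with most members (3 more each on those chromosomes), list genes with a member, the transduced genes, and up to 5 passing loci per direction among loci with 2 or more members, of which the text gives a part. Alternatives were list size, thresholds on −log10 q, merging distance, pseudocount, filter, flanks, replicate block, flow cell and leaving out each library.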

Additional observations from a re-analysis of the deposited data

How the results depend on the processing

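The number of members fell to 2746 in lists of equal size and 2769 at a −log10 q of at least 5, and 1371 and 1392 of the 4262 members were kept there, since dropping weak peaks removes members and also frees regions with a weak peak elsewhere. Leaving out 1 library gave 4335 to 6291 members. A −log10 q of at least 2, merging over 100 bp and opening by summit gave 4193, 4193 and 4444. The share on chromosomes 10 and 15 was 24.4% at equal size, 22.5% at a −log10 q of at least 5, and 19.8 to 20.8% without 1 library. The share near a gene start was 7.35% within 2 kb, 3.13% within 0.5 kb and 5.14% at a −log10 q of at least 5. The AP-1 share of promoters under members was 26.1% at equal size. The difference in peak share outside members between rMSC and control kept its sign under all alternatives run.

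Calls among loci with a member for control against Scf-GFP-positive stroma numbered 242, became 97 with all deposited peaks, and ran from 116 to 330 when any 1 of the 10 libraries was omitted. The replicate block gave 106 (53 higher and 53 lower). Same-numbered libraries did not deviate together (correlations of -0.02 to 0.02), but replicate 1 of every group shared a flow cell, so the number marks a run in part. With the flow cell as a term, chosen after seeing the data, 205 calls were left. Between the sorted groups the block gave 344 higher and 203 lower. No named locus and no difference in peak share changed sign. The balance of calls did turn, from 135 higher and 107 lower to 65 and 73 without control 2 in control against Scf-GFP-positive stroma. Over all loci of the sorted groups it turned from 1227 and 1528 to 1685 and 453 with all deposited peaks and to 1327 and 998 without Scf-GFP-negative 2. The share of loci with a member that were lower, 14.1% beside 16.8% of all loci, was 3.91% beside 3.78% with all deposited peaks. Windows of 100 bases around member summits were not run, as no genome sequence was used here. Depth is unknown, and absence from a list rests on 3 to 5 fragments.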
